A study of Mus musculus with 6 samples.

Results

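Cytosolic and mitochondrial chaperones were followed through 34 genes, those whose identifiers in the count table carry the symbols of the heat shock regulator Hsf1, heat shock proteins, their co-chaperones and the subunits of the TRiC chaperonin. They are 34 of 49671 genes in the table. The CD73 KO group held 3 libraries of OT-I CD8 T cells labelled as lacking CD73, the surface enzyme that makes adenosine from AMP and is encoded by Nt5e, and the WT group held 3 libraries of OT-I CD8 T cells without that label. OT-I cells carry a transgenic receptor for the ovalbumin peptide SIINFEKL. Both groups came from spleen CD8 T cells given the peptide at 10 ng/mL daily for 5 days with IL-7 and IL-15, each at 5 ng/mL, a culture that the labels name exhaustion, and live cells were sorted before RNA extraction. For every library the labels give replating at hour 48. No unstimulated or acutely stimulated library was analysed here, so all values are from repeatedly stimulated cells. Neither how the knockout was made nor the age of the mice is given in the labels, and whether the libraries of a group are separate animals or cultures is left unsaid. P-values therefore measure only the spread between these libraries, which may be technical.

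Chaperones bind unfolded or partly folded proteins and let them reach their working shape. Most cytosolic clients meet HSP70 first, which is loaded by J-proteins and emptied by nucleotide exchange factors such as the HSP110 proteins, and some then pass to HSP90, which matures kinases and steroid receptors with the help of co-chaperones. TRiC is a closed chamber of paired rings for actin, tubulin and other proteins, and a related chamber of HSP60 and its lid HSP10 works inside mitochondria. Hsf1 is the transcription factor of the heat shock response. It binds heat shock elements, inverted repeats of the letters GAA, and in T cells chaperone transcripts are known to increase when resting cells are activated.

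The heat shock element was looked for in the promoters of the members, because it is the sequence that Hsf1 binds. Promoter windows, 250 bases before to 50 after an annotated start, were taken from RefSeq on GRCm38.p6 and were found for 28 of the 34 genes; Hsf1, Hspa8, Hsp90aa1, Hsp90ab1, Hspa9 and Cct4 had none. A pair of alternating units was searched as GAANNTTC or TTCNNGAA and a run of 3 units as GAANNTTCNNGAA or TTCNNGAANNTTC, and overlaps were allowed. The 2 pairs each read the same on both strands, and the 2 runs of 3 are each other's reverse complement. The pair occurred in 15 of the 28 genes, against 17.0% of 27025 genes with a window. A run of at least 3 units occurred in 5 of the 28, namely Hsph1, Dnajb6, Chordc1, Hspd1 and Hspe1, against 0.662% of all genes. The stretches below show these runs, then the pairs of the inducible genes Hspa1a, Hspa1b and Hspb1, read 5′ to 3′ on the strand of the gene. Capitals mark the GAA and TTC units of a matched pair or run, and any other GAA or TTC stays in lower case.
Hspd1 and Hspe1, shown on the Hspe1 strand, chr1:55088054-55088081, plus strand: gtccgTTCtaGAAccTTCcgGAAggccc
Chordc1, chr9:18292261-18292287, plus strand: cgGAAcgTTCggGAAaaTTCctGAAgc
Hsph1, chr5:149636281-149636307, minus strand: ctgcagaTTCtgGAAagTTCtcctcag
Dnajb6, chr5:29735844-29735872, plus strand: agctccgaGAAtcTTCcgGAAcgctagac
Hspa1a, chr17:34972222-34972271, minus strand: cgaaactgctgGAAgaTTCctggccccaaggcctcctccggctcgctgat
Hspa1b, chr17:34959304-34959353, minus strand: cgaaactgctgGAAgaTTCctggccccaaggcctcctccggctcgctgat
Hspb1, chr5:135887794-135887837, plus strand: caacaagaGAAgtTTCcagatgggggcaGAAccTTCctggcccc

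Hspd1 and Hspe1 lie head to head on chromosome 1, with 215 bases between their RefSeq starts, and share 1 run of 4 units. In GENCODE M21, whose gene spans are given further on, the genes overlap by 112 bases, and the stretch overlaps an exon of Hspd1. In Chordc1 the run of 5 units spans the start, at bases -4 to 18. The Hsph1 run of 3 units lies after the RefSeq start, at bases 36 to 48 or 15 to 27 by the start used. The printed Hsph1, Chordc1 and Dnajb6 stretches overlap exons of their own genes, and the Dnajb6 stretch also overlaps an exon of Gm5129. The printed Hspa1a and Hspa1b stretches are the same in every base. A match describes letters only, and no binding of Hsf1 was measured.

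**Figure D1:**
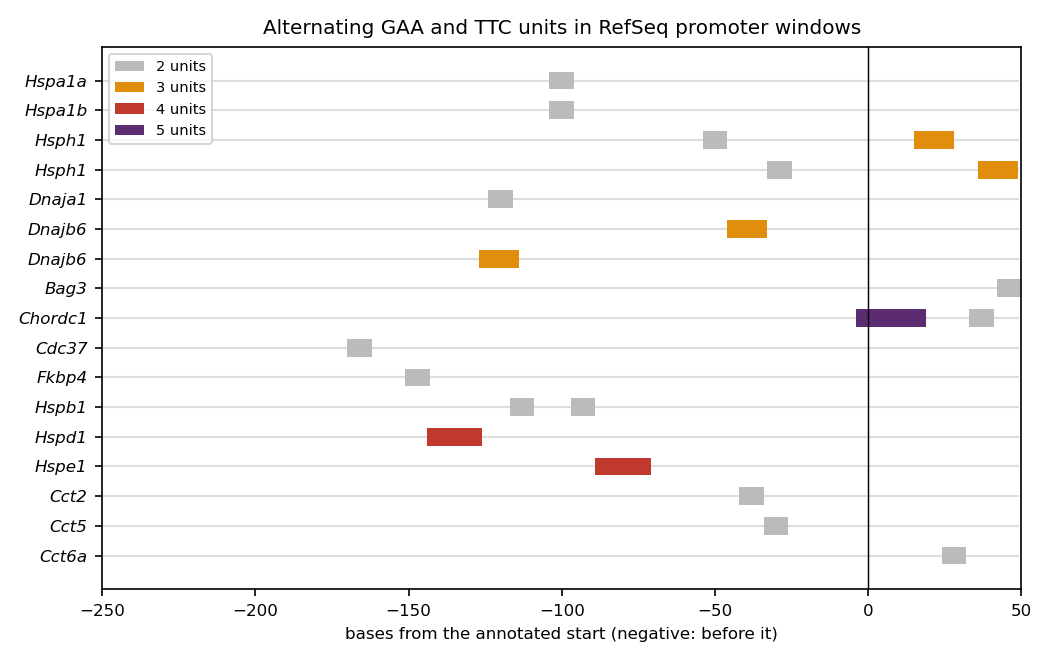
Positions of runs of alternating GAA and TTC units in RefSeq promoter windows of the members that hold at least 1 pair, with bases from the annotated start on the x axis and colour for the number of units. Rows repeat a gene that has more than 1 window or start, and the longest runs are the 5 units of Chordc1 and the 4 units shared by Hspd1 and Hspe1.

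The libraries held 19382950, 14867558 and 10202128 counts in CD73 KO and 13039990, 9510879 and 6934150 counts in WT. The targeted gene, Nt5e, had 69, 128 and 88 counts in CD73 KO and 290, 49 and 263 in WT. As CPM, a read count made comparable across depths by TMM-scaled library totals, this was 3.67, 8.45 and 8.47 CPM in CD73 KO, against 22.6, 5.22 and 37.4 CPM in WT, so the library labelled WT replicate 2 lay inside the CD73 KO range. Its label is therefore in doubt and could not be settled from the counts, and WT below means the libraries so labelled. The log2 fold change of Nt5e was -1.67 ± 0.72 (SE), above the threshold at an edgeR adjusted p of 0.534. The labelled cell type was visible in every library, with Cd8a at 702 to 1118 CPM. Cd4 had 0 to 5 counts, the B cell markers Ms4a1 and Pax5 and the myeloid markers Lyz2, Csf1r, C1qa, Spi1 and Siglech had 0 in all libraries, and the summed markers of the 8 myeloid and dendritic genes were 0.396 to 1.81 CPM in CD73 KO, against 0.569 to 3.30 CPM in WT. NK cell markers summed to 19.0 to 34.6 CPM in CD73 KO, against 15.9 to 53.0 CPM in WT. CD4 T cell markers summed to 24.3 to 28.3 CPM in CD73 KO, against 28.0 to 35.5 CPM in WT, B cell markers to 1.64 to 2.45 CPM in CD73 KO, against 0.639 to 1.71 CPM in WT, and stromal and erythroid markers to 11.1 to 14.2 CPM in CD73 KO, against 9.16 to 13.2 CPM in WT. Most of the NK cell sum came from Eomes and Klre1, with Ncr1 at 0.066 to 0.852 CPM over all libraries. Zbtb7b gave most of the CD4 T cell sum, Cd79b of the B cell sum and Epcam of the stromal and erythroid sum. The part of such cells in the results was not tested.

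Chaperone transcripts took a smaller share of the counts in the CD73 KO libraries. The 34 genes summed to 15457, 16171 and 16272 CPM in CD73 KO replicates 1 to 3 and to 18165, 18525 and 19043 CPM in WT replicates 1 to 3, which is 1.5%, 1.65% and 1.66% of the counts in CD73 KO and 1.79%, 1.83% and 1.93% in WT. The groups did not overlap. Of the 33 members that passed the filter on low counts, 31 had a log2 fold change below 0 (30 when scaled by library size alone, with Dnajc7 then at 0.007), where 47.7% of all 12242 tested genes had one. Their median was -0.19, against 0.01 over all tested genes. The exceptions were Hspa1a and Hspa1b. In 20 of the 33 every CD73 KO library lay below every WT library, against 7.6% of all tested genes. When the library labelled WT replicate 2 was left out, the member median was -0.20, 29 of 33 were below 0, and 20 had all CD73 KO libraries below the other 2 WT libraries, against 9.46% of all tested genes.

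No single member passed the adjusted threshold of 0.05 with edgeR's quasi-likelihood test and Benjamini-Hochberg adjustment over all tested genes, which 0.0572% of tested genes passed in either direction (7 of 12242). At an unadjusted p under 0.05, 11 members were lower in CD73 KO, against 3.89% of all tested genes, and 0 were higher, against 5.75%. The 11 were Hsph1, Hsp90aa1, Stip1, Fkbp4, Hspa9, Hspd1, Cct3, Cct5, Cct6a, Cct7 and Cct8. Leaving out CD73 KO replicate 1 gave 6 such members, and leaving out the library labelled WT replicate 2 gave 7. The share of all tested genes at that p was not counted in those fits. DESeq2 called 1 member, Hspd1 (adjusted p = 0.0488), limma-voom called 0, and with no low-count filter edgeR called Hspd1 (adjusted p = 0.00619) and Hsph1 (adjusted p = 0.0307). Each of these calls was of a lower level in CD73 KO. Both fits also called more of all genes than the main fit, with 99 of 21315 fitted genes in DESeq2 and 298 of 21315 in edgeR with no filter. DESeq2's default filter can leave low-count genes without an adjusted p, so 21315 can exceed the number of genes it could call.

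The background was lower among highly expressed genes. Among the 2412 tested genes that averaged at least 100 CPM, 60.9% had a log2 fold change below 0, 13.3% had all CD73 KO libraries below all WT libraries, 7.13% were lower at an unadjusted p under 0.05, and the median was -0.04. The 28 members at that level were all below 0, 20 of them without overlap and 11 at an unadjusted p under 0.05, with a median of -0.20. Within each group, the summed level of the members was lower in the deeper libraries. The deepest library, CD73 KO replicate 1, was lowest for 20 of the 33 tested members, and the shallowest, WT replicate 3, was highest for 17. CD73 KO replicate 3 was shallower than WT replicate 1 and was below it in 26 of 33 members. The same counts were not made over all tested genes, so whether they are particular to the members is not known. With all libraries thinned to 6934150 counts the median was -0.20. Random thinning leaves the expected share of each gene unchanged, so this value cannot show the part of depth. With CD73 KO replicate 1 and WT replicate 3 both left out the median was -0.14. The part of depth in the result was not tested.

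**Figure D2:**
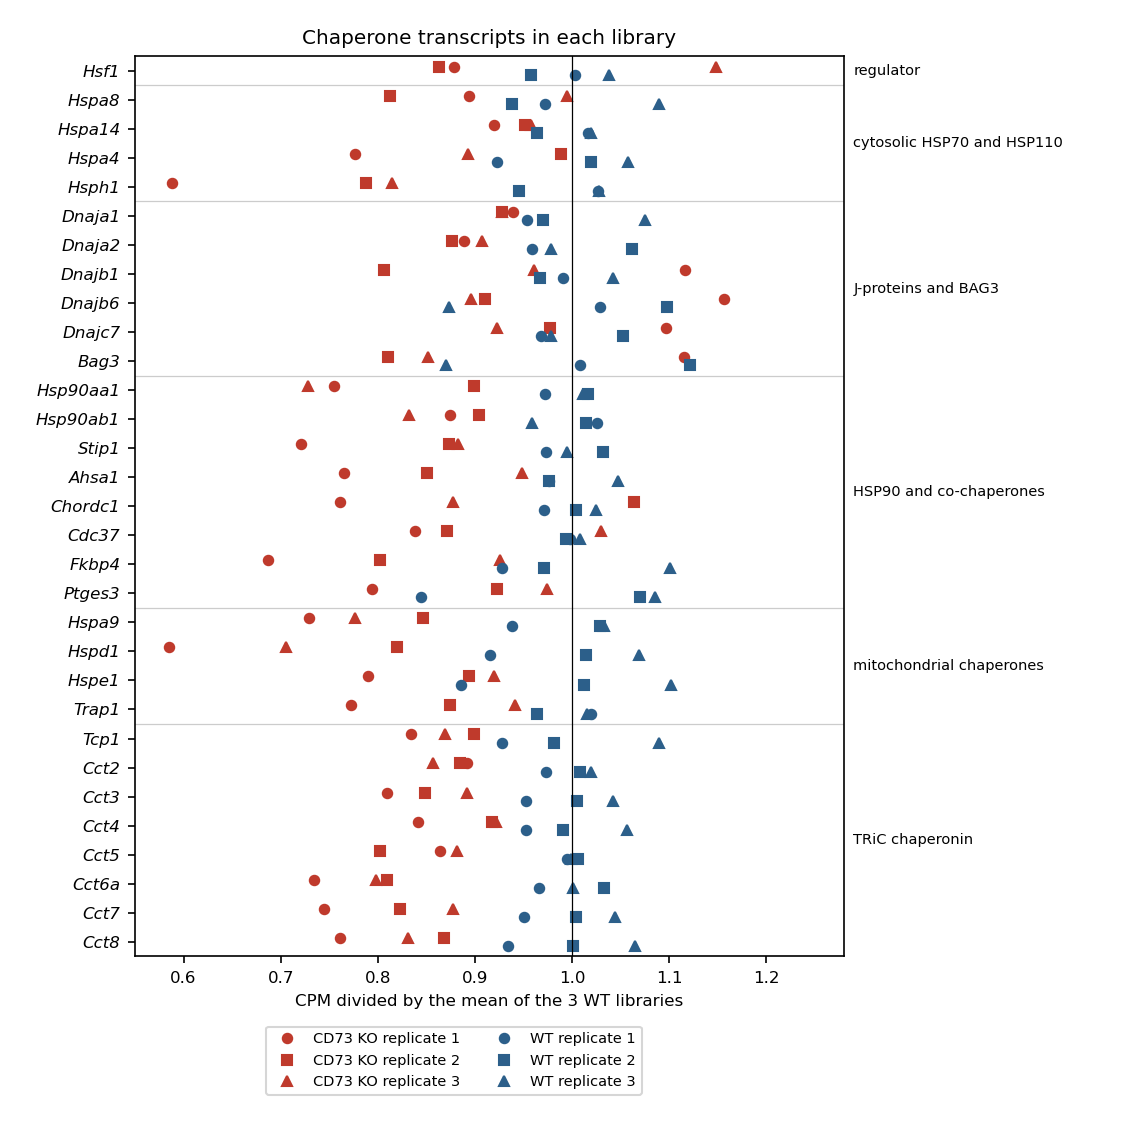
CPM of each chaperone gene that averaged at least 10 CPM, divided by the mean of the 3 WT libraries, on the x axis, with 1 point per library and genes in rows by role. CD73 KO points lie left of the WT points in all 8 TRiC rows and in the Dnaja1 and Dnaja2 rows. They mix with the WT points in the rows of the other J-proteins and Bag3.

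Per length of transcript, Hsp90ab1, the constitutive cytosolic HSP90, was the most abundant member, at 4409 ± 368 TPM in CD73 KO libraries and 5053 ± 155 TPM in WT libraries (SD, n = 3 each). Hspa8, the constitutive cytosolic HSP70, came next at 2101 ± 163 TPM in CD73 KO libraries and 2337 ± 203 TPM in WT libraries (SD, n = 3 each). TPM here divides counts by the merged length of a gene's exons. Below these a broad middle held Cct2, Cct5, Hsp90aa1 and Hspd1 with 679.7 to 741 TPM averaged over all libraries. The order depends on the length chosen. By the longest coding transcript Cct5 (712 TPM) stood above Cct2 (662 TPM), and Hspe1 (538 TPM) above Hspd1 (507 TPM). At the bottom Bag3 and Hsf1 averaged 23.2 and 22.7 TPM. The stress-inducible genes Hspa1b, Hspa1a and Hspb1 averaged 1.48, 1.09 and 0.319 TPM.

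**Figure D3:**
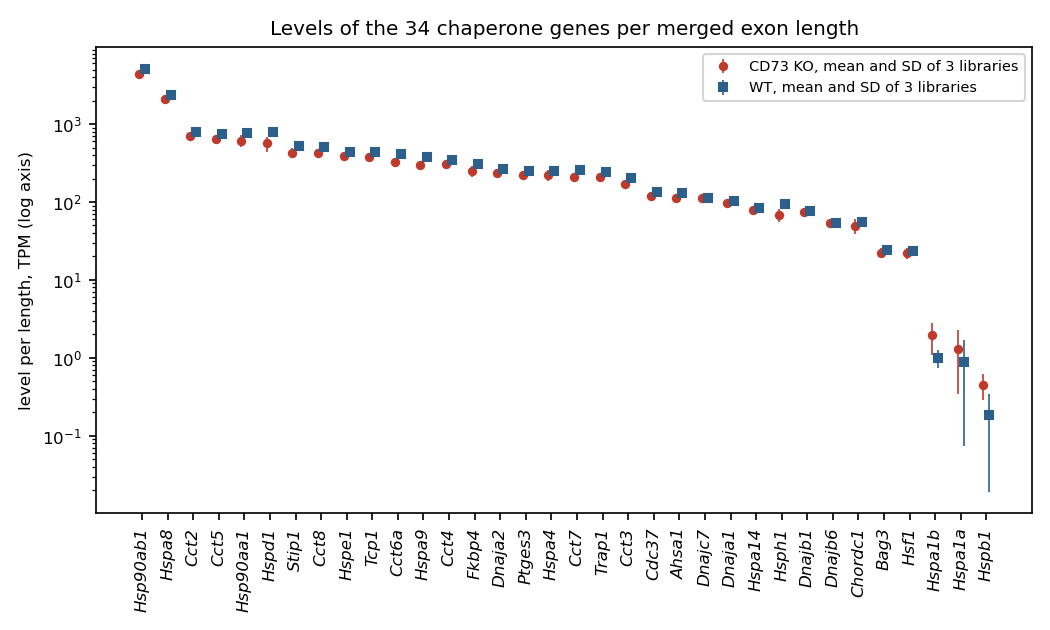
Level of the 34 chaperone genes in TPM by merged exon length, on a log axis, in order of the mean over all 6 libraries, with mean and SD of 3 libraries per group. Levels averaged over the libraries run from 4731 TPM for Hsp90ab1 to 0.319 TPM for Hspb1, and CD73 KO means lie at or below WT means except for the 3 genes on the right.

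Hsf1 (chr15:76477422-76501913) had 47.0, 46.2 and 61.4 CPM in CD73 KO, against 53.7, 51.2 and 55.5 CPM in WT. Its groups overlapped, with CD73 KO replicate 3 the highest library and CD73 KO replicates 1 and 2 the lowest. The log2 fold change was -0.06 ± 0.13 (SE, edgeR adjusted p = 0.909). Of the other heat shock factors listed, Hsf2 and Hsf4 were tested and Hsf5 had 0 counts in all libraries. None of Hsf2, Hsf4 and Hsbp1, a protein that binds heat shock factors, had an unadjusted p under 0.05. Hsf2, a factor that pairs with Hsf1, had the smallest p among them, with a log2 fold change of -0.12 ± 0.14 (SE).

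Among the 6 cytosolic HSP70 and HSP110 genes, the clearest difference was in Hsph1 (chromosome 5), an HSP110 protein that exchanges the nucleotide of HSP70 and slows aggregation. It had 129, 173 and 179 CPM in CD73 KO, against 226, 208 and 226 CPM in WT. Every CD73 KO library was below every WT library, and CD73 KO replicate 1 was the lowest. The mean was 160.5 ± 27.1 CPM over the CD73 KO libraries and 219.7 ± 10.3 CPM over the WT libraries (SD, n = 3 each), a log2 fold change of -0.45 ± 0.13 (SE, edgeR adjusted p = 0.348). Hspa8 (chromosome 9), which folds new proteins in unstressed cells, had 2921, 2657 and 3251 CPM in CD73 KO, against 3178, 3067 and 3560 CPM in WT. These groups overlapped, and the log2 fold change was -0.15 ± 0.11 (SE, edgeR adjusted p = 0.673). Hspa4, the other HSP110 gene among the members, was at -0.17 with overlapping groups. Hspa4l, an HSP110 gene outside the members, was at 0.17 ± 0.15 (SE). Hspa14, an HSP70 that works at the ribosome, was at -0.08 ± 0.10 (SE) with groups that did not overlap but stood close.

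The inducible HSP70 genes Hspa1a and Hspa1b were close to the detection limit. Hspa1a had 4, 28 and 17 counts in CD73 KO and 8, 2 and 12 counts in WT. Hspa1b had 18, 35 and 21 counts in CD73 KO and 14, 6 and 7 counts in WT. The transcripts of this neighbouring pair on chromosome 17 are 99.2% identical over 2201 aligned bases, so how their reads were divided is uncertain. Their sum was 1.17 (95% interval 0.733 to 1.77), 4.16 (3.20 to 5.32) and 3.66 CPM (2.59 to 5.02) in CD73 KO and 1.71 (1.07 to 2.59), 0.852 (0.368 to 1.68) and 2.71 CPM (1.63 to 4.22) in WT, with exact Poisson intervals that cover counting error only. CD73 KO replicate 1 lay among the WT libraries, and CD73 KO replicates 2 and 3 were the highest. Hspa1b had the most positive log2 fold change of all members, 0.91 ± 0.44 (SE, edgeR adjusted p = 0.534), and that of Hspa1a was 0.59 ± 0.84 (SE, edgeR adjusted p = 0.848). For Hspa1a the value ran from 0.06 to 1.95 over the alternatives and rested on single libraries: leaving out CD73 KO replicate 2 gave 0.06, and leaving out WT replicate 3 gave 1.40.

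J-proteins, which deliver clients to HSP70, and Bag3, an exchange factor tied to autophagy of aggregates, had the median nearest to 0 among the groups of several genes with all 6 libraries. That median log2 fold change was -0.08, and none of the 6 was lower at an unadjusted p under 0.05. Dnaja2 (chromosome 8) had 227, 224 and 232 CPM in CD73 KO, against 245, 272 and 250.3 CPM in WT, without overlap, and a log2 fold change of -0.17 ± 0.10 (SE, edgeR adjusted p = 0.598). Dnaja1 (chromosome 4) had 274, 270.2 and 270.3 CPM in CD73 KO, against 278, 283 and 313 CPM in WT, again without overlap but with WT replicate 1 close to CD73 KO replicate 1. Its log2 fold change was -0.10 ± 0.10 (SE, edgeR adjusted p = 0.756). Dnajb1, the J-protein induced by heat together with HSP70, had 90.3, 65.2 and 77.7 CPM in CD73 KO, against 80.1, 78.2 and 84.3 CPM in WT. Its groups overlapped, as did those of Dnajb6, Dnajc7 and Bag3. The log2 fold changes of Dnajb6 and Dnajc7 were -0.02 and 0.00 to 2 decimals, and the group median was -0.004 when CD73 KO replicate 2 was left out. When CD73 KO replicate 1 was left out it was -0.16, and the HSP70 and HSP110 median, at -0.08, was then nearer to 0.

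HSP90 and its co-chaperones were lower in CD73 KO in all 8 tested genes, by a median log2 fold change of -0.21, and summed to 6192, 6659 and 6232 CPM in CD73 KO, against 7443, 7506 and 7277 CPM in WT. Hsp90aa1 (chromosome 12), the inducible cytosolic HSP90, had 744, 886 and 717 CPM in CD73 KO, against 957, 1002 and 997 CPM in WT. All WT libraries stood above all CD73 KO libraries. Its mean was 782 ± 90.3 CPM over the CD73 KO libraries and 985 ± 24.2 CPM over the WT libraries (SD, n = 3 each), a log2 fold change of -0.33 ± 0.11 (SE, edgeR adjusted p = 0.379). Hsp90ab1 (chromosome 17) had 4313, 4460 and 4105 CPM in CD73 KO, against 5060, 5002 and 4730 CPM in WT, also without overlap, and a log2 fold change of -0.20 ± 0.09 (SE, edgeR adjusted p = 0.518). The ratio of Hsp90aa1 to Hsp90ab1 counts was 0.173, 0.199 and 0.175 in CD73 KO and 0.189, 0.200 and 0.211 in WT, and overlapped.

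Stip1, the adaptor that holds HSP70 and HSP90 together, had 256, 311 and 314 CPM in CD73 KO, against 346, 367 and 354 CPM in WT. The groups did not overlap, and the log2 fold change was -0.28 ± 0.11 (SE, edgeR adjusted p = 0.477). Fkbp4, an immunophilin of steroid receptor complexes, had a log2 fold change of -0.31 ± 0.13 (SE, edgeR adjusted p = 0.492), without overlap but with CD73 KO replicate 3 at 262 CPM beside WT replicate 1 at 263 CPM. Ahsa1, which speeds the HSP90 ATPase, was at -0.23 without overlap. Ptges3, which steadies the closed HSP90 dimer, Chordc1, a co-chaperone of HSP90, and Cdc37, which brings kinases to it, were at -0.16, -0.15 and -0.13 with overlapping groups. Ptges3 shares reads with a copy, described with the other retrocopies further on.

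Hspb1, a small heat shock protein that holds unfolded proteins until HSP70 takes them over, was not tested. It had 3, 3 and 1 counts in CD73 KO and 1, 1 and 0 counts in WT. All 6 values were at or under 3 counts, taken as the detection floor, so no fold is given. Its promoter window holds 2 separate pairs of units, printed above. Of the 8 other small heat shock proteins listed, Hspb6 and Hspb11 were tested, with log2 fold changes of 0.33 and 0.30, neither at an unadjusted p under 0.05, and Hspb3, Hspb7 and Hspb8 had 0 counts in all libraries.

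Mitochondrial chaperones had the lowest median of the role groups, -0.28 over 4 genes. They summed to 1109, 1374 and 1278 CPM in CD73 KO and to 1516, 1647 and 1716 CPM in WT, and every WT library stood above every CD73 KO library. Hspd1 (chr1:55077835-55088243), the HSP60 chamber, had the most negative log2 fold change of all members, with 400.4, 561 and 483 CPM in CD73 KO, against 626, 694 and 732 CPM in WT. CD73 KO replicate 1 was the lowest library, and the groups did not overlap. The mean was 481 ± 80.3 CPM over the CD73 KO libraries and 684 ± 53.4 CPM over the WT libraries (SD, n = 3 each), a log2 fold change of -0.51 ± 0.13 (SE, edgeR adjusted p = 0.305) or 29.6% less. Hspe1 (chr1:55088132-55091307), the lid that shares the Hspd1 promoter, had 167, 189 and 194 CPM in CD73 KO, against 187, 214 and 233 CPM in WT. WT replicate 1 lay within the CD73 KO range, and the log2 fold change was -0.20 ± 0.12 (SE, edgeR adjusted p = 0.594).

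The ratio of Hspd1 to Hspe1 counts was 2.40, 2.97 and 2.48 in CD73 KO and 3.34, 3.24 and 3.14 in WT, without overlap. This ratio was chosen after the values of both genes were seen and was not tested. Hspa9, the mitochondrial HSP70 that pulls proteins in through the inner membrane, had 386, 448 and 411 CPM in CD73 KO, against 497, 545 and 547 CPM in WT. Its groups did not overlap, and the log2 fold change was -0.35 ± 0.10 (SE, edgeR adjusted p = 0.346). Trap1, the mitochondrial HSP90, was at -0.21 ± 0.11 (SE, edgeR adjusted p = 0.551), also without overlap.

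All 8 TRiC subunits were lower in CD73 KO, and in all 8 every CD73 KO library lay below every WT library, against 13.3% of tested genes averaging at least 100 CPM, as all 8 do. They summed to 3675, 3863 and 3904 CPM in CD73 KO, against 4316, 4522 and 4688 CPM in WT. The log2 fold changes ran over a narrow range, from -0.36 for Cct6a to -0.16 for Cct4, with a median of -0.23, and 5 of the 8 had an unadjusted p under 0.05, against 7.13% of those genes that were lower at that p. The 8 subunits sit in the same ring and are encoded on 8 different chromosomes. They are not replicates of the comparison, since all are read in the same 6 libraries.

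Cct6a (chromosome 5) had 361, 398 and 392 CPM in CD73 KO, against 475, 508 and 492 CPM in WT. Its mean was 384 ± 20.2 CPM over the CD73 KO libraries and 491 ± 16.5 CPM over the WT libraries (SD, n = 3 each), a log2 fold change of -0.36 ± 0.10 (SE, edgeR adjusted p = 0.319). This gap was several times the spread within either group. Cct7 (chromosome 6) had 421, 465 and 496 CPM in CD73 KO, against 538, 568 and 590.4 CPM in WT, with CD73 KO replicate 1 the lowest, and a log2 fold change of -0.29 ± 0.10 (SE, edgeR adjusted p = 0.407). Cct2 (chromosome 10) had 585, 580.1 and 562 CPM in CD73 KO, against 638, 661 and 669 CPM in WT. Its log2 fold change of -0.19 ± 0.09 (SE, edgeR adjusted p = 0.535) was among the smaller ones. Tcp1, Cct3, Cct5 and Cct8 ran from -0.29 to -0.20.

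**Figure D4:**
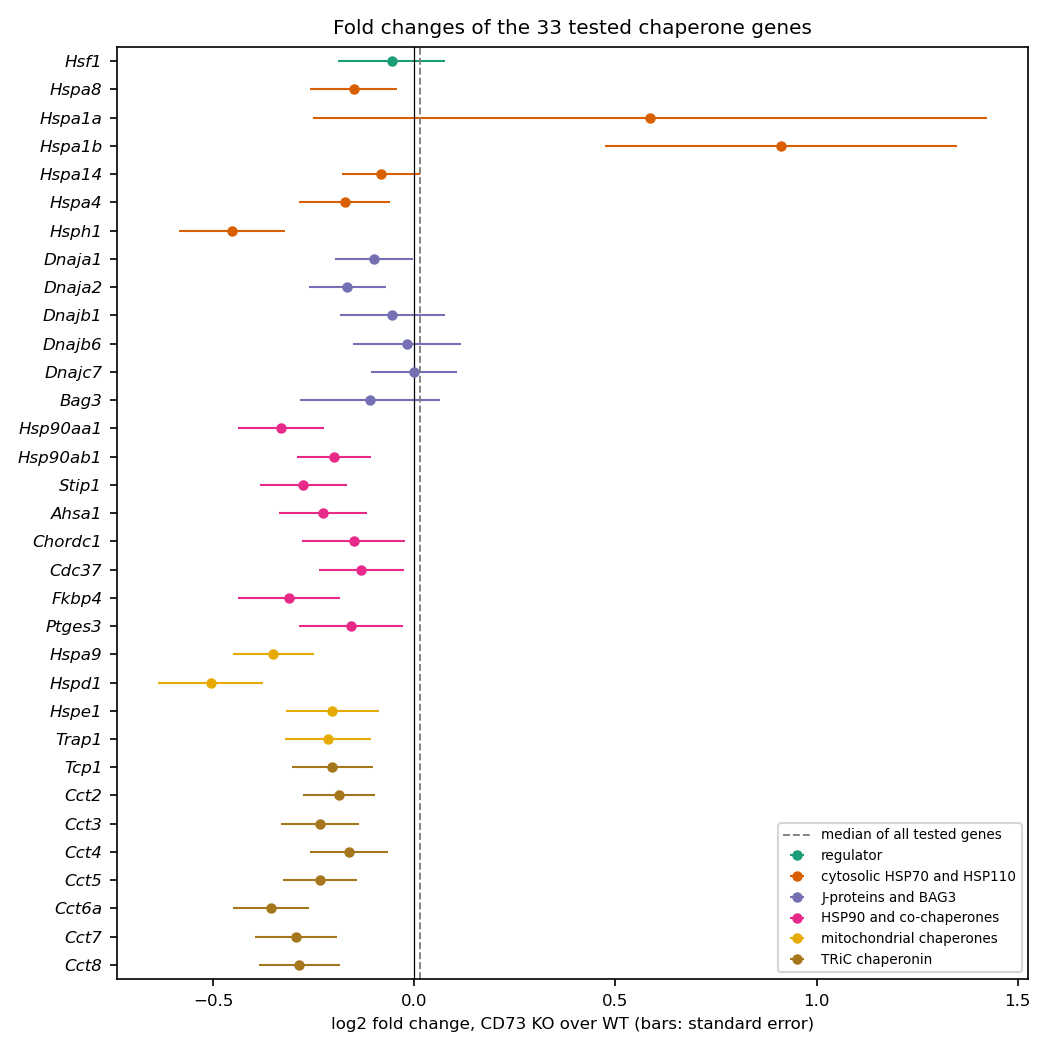
Log2 fold change of CD73 KO over WT for the 33 tested chaperone genes, with bars of 1 standard error, coloured by role and set against the median of all tested genes as a dashed line. HSP90, mitochondrial and TRiC genes lie between -0.51 and -0.13, and J-proteins between -0.167 and -0.001, so these ranges overlap. Hspa1a and Hspa1b lie right of 0 with wide bars.

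The role groups differed in how far apart the libraries stood. Summed HSP70 and HSP110 genes were 3499, 3380 and 3937 CPM in CD73 KO, against 3929, 3836 and 4372 CPM in WT, so CD73 KO replicate 3 reached into the WT range. Summed J-proteins and Bag3 were 935, 849 and 859 CPM in CD73 KO, against 908, 962 and 935 CPM in WT, and overlapped. The HSP90, mitochondrial and TRiC sums did not. Whether the difference between role groups exceeds error was not tested. The median coefficient of variation over the 31 members averaging at least 10 CPM was 9.87% in CD73 KO and 4.69% in WT.

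**Figure D5:**
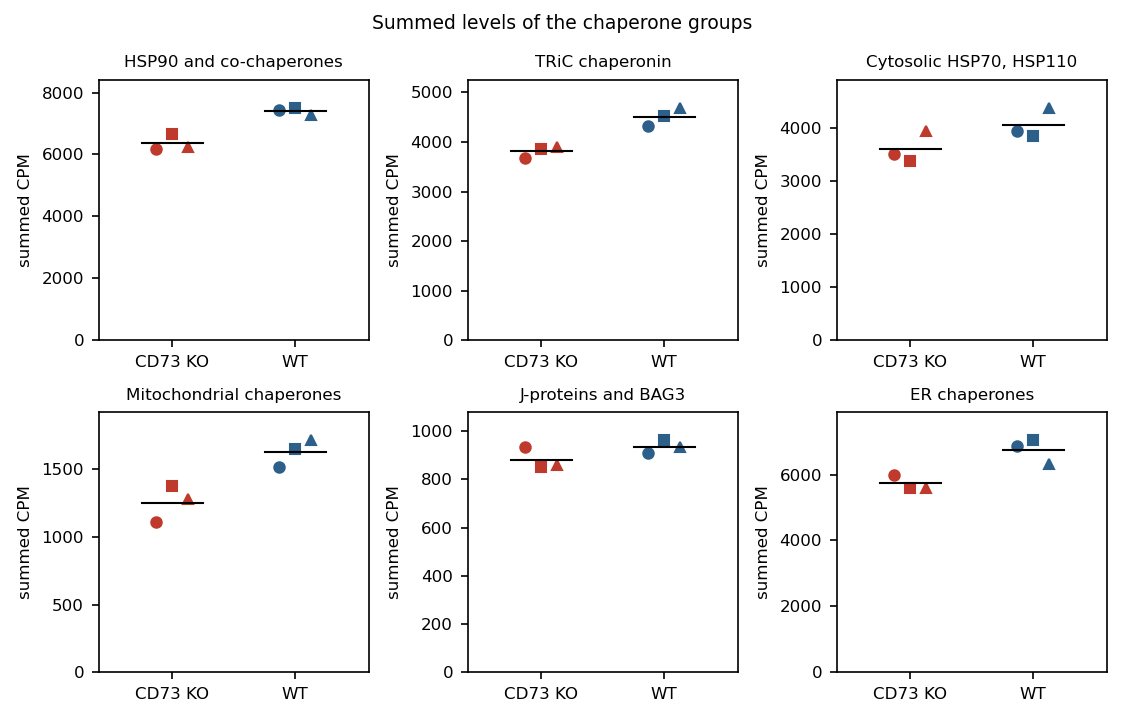
Summed CPM of 5 chaperone role groups and of 15 ER chaperones in each library, with the group mean as a line and circle, square and triangle for replicates 1, 2 and 3. CD73 KO and WT points are separate for HSP90, TRiC, mitochondrial and ER chaperones and overlap for HSP70 and J-proteins.

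Other genes of the pathway were read from lists of the same kinds. None passed the adjusted threshold. Of 19 further HSP90 co-chaperones, all tested, 14 had a log2 fold change below 0 and the median was -0.17. Nudcd2, a relative of the dynein partner Nudc, was at -0.43 ± 0.13 (SE, edgeR adjusted p = 0.368), Cacybp at -0.32 ± 0.11 (SE) and Nudc at -0.28 ± 0.12 (SE), and these 3 of 19 were lower at an unadjusted p under 0.05, against 3.89% of all tested genes. Of 14 further HSP70 and exchange factor genes, 11 were tested, 9 were below 0 with a median of -0.12, and none had an unadjusted p under 0.05. The smallest p was that of Bag1, an exchange factor, at -0.19 ± 0.11 (SE). Of 22 further J-proteins, 21 were tested and 13 were below 0 with a median of -0.07. There, Dnajc21, a J-protein of ribosome assembly, was at -0.25 ± 0.11 (SE) and Dnajc27 at 0.44 ± 0.19 (SE).

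Partners and clients of the chambers had medians nearer to 0 than the chambers, with single genes farther away. Of 11 prefoldin and TRiC partner genes, which hand clients to TRiC, 9 were tested, 7 were below 0 with a median of -0.09, and none had an unadjusted p under 0.05; Pfdn1, a prefoldin subunit, had the smallest, at -0.18 ± 0.12 (SE). Of 12 actin and tubulin genes, the main TRiC clients, 10 were below 0 with a median of -0.16. Tubb6, a beta-tubulin, was at -0.58 ± 0.16 (SE, edgeR adjusted p = 0.346) and Actb at -0.06. Of 16 genes of mitochondrial import and protein quality, 15 were tested and 13 were below 0 with a median of -0.16, and Phb, a scaffold of the inner membrane, was at -0.31 ± 0.13 (SE).

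Chaperones of the endoplasmic reticulum, which fold secreted and surface proteins and are known to be controlled mainly by the unfolded protein response, were read for comparison. Of 15, all tested, 14 had a log2 fold change below 0, and the median was -0.24. At an unadjusted p under 0.05, 9 were lower, against 3.89% of all tested genes, and in 10 every CD73 KO library lay below every WT library, against 7.6%. Most of the 15 averaged at least 100 CPM, and among all tested genes at that level these shares were 7.13% and 13.3%. Whether they differ from the cytosolic and mitochondrial chaperones was not tested. They summed to 5999, 5603 and 5586 CPM in CD73 KO, against 6873, 7042 and 6327 CPM in WT. Pdia6, a disulfide isomerase, had 209, 225 and 261 CPM in CD73 KO, against 317, 321 and 303 CPM in WT, a log2 fold change of -0.44 ± 0.11 (SE, edgeR adjusted p = 0.288). The folding chaperones Hsp90b1, Canx and Calr were at -0.24, -0.28 and -0.25. In bulk RNA, fewer cells with high chaperone levels and less chaperone RNA per cell cannot be told apart.

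Several cell states were read beside the chaperones. Cell division genes summed to 6059, 5596 and 5283 CPM in CD73 KO, against 5776, 5542 and 5269 CPM in WT, and overlapped. Immediate early genes, which mark recent receptor signalling, summed to 521, 370.1 and 513 CPM in CD73 KO, against 337, 364 and 466 CPM in WT, and 8 of 10 had a log2 fold change above 0. Hypoxia genes summed to 642, 854 and 547 CPM in CD73 KO, against 542, 587 and 891 CPM in WT, with the highest values in CD73 KO replicate 2 and WT replicate 3. The 8 CD8 T cell markers summed to 4257 to 4683 CPM in CD73 KO, against 4054 to 4169 CPM in WT. The part of these differences in the chaperone result was not tested.

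Many chaperone genes have processed pseudogenes, copies of the spliced transcript elsewhere in the genome, and reads can be split between a gene and such a copy. Counts were found for 34 copies of 12 members. Copies took 19.6% to 23.0% of the joint counts of Ptges3 and its copies, led by Ptges3-ps at 100% identity, 11.5% to 13.5% for Dnajb6, led by Gm6395, and 6.15% to 8.62% for Dnaja1, led by Gm15542. They took 3.44% to 4.02% for Hspd1, 2.77% to 3.37% for Hspa8, led by Gm15459, and at most 0.491% for the other 7 members. Hspd1-ps3, at 98.96% identity the only Hspd1 copy with counts, had a log2 fold change of -0.64 ± 0.17 (SE, edgeR adjusted p = 0.326). Hspd1 together with this copy summed to 415, 581 and 500 CPM in CD73 KO, against 649, 722 and 762 CPM in WT, still without overlap.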

How the data were processed

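The authors deposited unnormalized read counts for each gene and library, keyed by mouse Ensembl gene. Tools named in the submitters' processing notes are fastp, HISAT2 and featureCounts, with mm10 as build; per the labels' protocols the kit was stranded. For versions, strand setting, annotation release and reads with several matches, the sources used here give nothing, so antisense partners and near-identical copies cannot be told apart. Symbols were found for 49326 of 49671 identifiers. Coordinates and lengths are from GENCODE M21.

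Genes were kept with filterByExpr (minimum count 10, minimum total 15) and compared with the quasi-likelihood F-test of edgeR 4.0.16 in R 4.3.3 (TMM factors, robust, legacy fit), with Benjamini-Hochberg adjustment over all 12242 tested genes and a threshold of 0.05. Totals ran from 6934150 to 19382950 counts. Intervals for single libraries are exact Poisson at 95%. Replicates differed beyond sampling noise and were counted singly. Values in every library are given for Hsf1, the smallest p and the highest level per length in each role group, and the extreme fold changes; other values were chosen after they were seen. Members and lists were chosen with earlier results of these data known. Pseudogenes were matched with blastn (E-value limit 1e-20, coverage 70%). Alternatives included DESeq2 1.42.0 and limma-voom (limma 3.58.1).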

Additional observations from a re-analysis of the deposited data

How the results depend on the processing

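The member median stayed below 0 under all 17 alternatives, from -0.224 to -0.142, and 27 to 31 of the 32 to 34 members fitted had a log2 fold change below 0. The number of members past the adjusted threshold was 0 in edgeR, 1 with DESeq2 and 2 without a filter on low counts, and 0 to 0 with single replicates left out. The number lower at an unadjusted p under 0.05 was 11, 6 to 14 with single replicates left out, 7 with CD73 KO replicate 1 and WT replicate 3 left out together, an alternative chosen after seeing the data as was thinning, and 13 with the replicate block. Over all genes 7 were called, against 298 without a filter, 99 with DESeq2, 71 without those 2 libraries, 5 with the replicate block and 4 to 8 with single replicates left out. These changes of count were not traced to a cause; the cause was not tested. Replicate numbers were not taken to pair samples. For each gene, the deviation of a library's log CPM from the mean of its group was taken. These deviations correlated at 0.15, -0.17 and 0.01 between same-numbered libraries. By them, not every library correlated best with its own number.

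The sign was reversed in at least 1 alternative for 4 members near 0. Dnajc7 was at 0.007 with library size alone, 0.002 without a filter, 0.001 with a filter of 1 CPM in 3 libraries and -0.08 to 0.051 with single replicates left out. Hsf1 was at 0.026 without CD73 KO replicate 1 and WT replicate 3, and with single replicates left out Hsf1 ran from -0.20 to 0.016, Dnajb1 from -0.185 to 0.057 and Dnajb6 from -0.155 to 0.048. The cause was not tested. The other 29 tested members kept their sign. Depth limits Hspa1a, Hspa1b and Hspb1, where 3 counts equal 0.160 to 0.427 CPM.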
